A study of Mus musculus with 4 samples.

Results

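Expression of 10 genes of the node of Ranvier and its flanking paranode was examined in mouse prefrontal cortex: Nfasc, Cntn1, Cntn2, Cntnap1, Cntnap2, Ank3, Ank2, Sptbn4, Nrcam and Hapln2. The rule names the genes by their place at the node and paranode and uses no measured value, though the list was drawn up with earlier results of these data known. Every probe set that the platform annotation assigns to exactly 1 of these symbols was kept. All 10 were found, of 18193 genes with such a probe set, by 33 probe sets, of which 31 read the 9 genes grouped here as axonal and 2 read Hapln2, the component made by oligodendrocytes. The platform was the Affymetrix MOE430 2.0 array, whose probe sets are groups of short probes to a transcript, and a gene can have several of them. Each of the 4 arrays carried total RNA of prefrontal cortex pooled over 5 mice: 2 pools came from animals under repeated social threat (environment HighThreat in the labels) and 2 from controls (LowThreat). The labels name no transgene, drug or time point, and strain, age and sex are not stated in them. Because a pool averages its animals, the variation among mice is not seen, and nothing in the labels ties a pool to a cage or day. All values below are log2 expression values as deposited, where a difference of 1 is a doubling, and a gene's main probe set is the one with the highest mean over the 4 arrays.

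The node of Ranvier is the gap between myelin segments where sodium channels cluster and the action potential is regenerated. On the axon, the long isoform of neurofascin (Nfasc) and NrCAM (Nrcam) hold the channels together with ankyrin G (Ank3), which is tied to the membrane skeleton by beta-IV spectrin (Sptbn4). At the flanking paranode, contactin (Cntn1) and Caspr (Cntnap1) on the axon bind the glial isoform of neurofascin on the myelin loops, and beyond it, in the juxtaparanode, TAG-1 (Cntn2) and Caspr2 (Cntnap2) gather potassium channels. Hapln2, or Bral1, is a link protein that joins hyaluronan to proteoglycans in the matrix around the node and is made by oligodendrocytes. The axonal label is a simplification, since oligodendrocytes also make neurofascin and TAG-1, and ankyrins occur throughout neurons and in glia.

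Upstream sequence from RefSeq is shown for the oligodendrocyte gene Hapln2 and the neuronal gene Cntnap2, the 2 members for which a window of 250 bases before an annotated start lay wholly outside the annotated gene. Both are given 5′ to 3′ on the gene's strand in build GRCm38.p6, in lower case with each CG dinucleotide in capitals. The Hapln2 window is chr3:88027512-88027761 on the minus strand and the Cntnap2 window is chr6:45059811-45060060 on the plus strand.
Hapln2: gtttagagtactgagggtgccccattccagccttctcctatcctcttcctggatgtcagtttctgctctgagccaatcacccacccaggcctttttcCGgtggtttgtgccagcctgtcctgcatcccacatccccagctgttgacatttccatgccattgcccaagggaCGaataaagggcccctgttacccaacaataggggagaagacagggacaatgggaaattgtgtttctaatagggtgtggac
Cntnap2: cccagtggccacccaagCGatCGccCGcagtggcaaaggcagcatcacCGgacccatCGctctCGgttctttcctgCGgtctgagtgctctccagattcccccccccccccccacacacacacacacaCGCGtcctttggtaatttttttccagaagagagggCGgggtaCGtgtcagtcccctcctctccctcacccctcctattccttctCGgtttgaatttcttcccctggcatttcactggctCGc
The Hapln2 window held 2 CG dinucleotides and 52.4% G and C, and the Cntnap2 window held 13 and 59.6%, beside a median of 6 and 52.4% over 32841 such windows of mouse genes. The GC box GGGCGG, searched on both strands, was in the Cntnap2 window and in 32.7% of all windows, but not in that of Hapln2. Neither window held TATAAA (12.4% of all windows, both strands) or ACAAAG, a core bound by SOX factors (16.5%). Other forms of the SOX core were not searched, so no absence of SOX sites is shown. Windows were found for 8 of the 10 genes, all but Ank3 and Cntnap1, with 18 annotated starts between them, and 8 of the 18 held more CG dinucleotides than the median window. The array values do not bear on these letters, which are a description of the 2 genes.

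No difference between threat and control pools passed limma's test in any of the 10 genes, and none met a rule of size. No member probe set passed an adjusted p of 0.05, where 0.0% of all probe sets passed (0 of 45037, smallest adjusted p 0.278 in limma's test). At an unadjusted p under 0.05 there were 2 of 33 (6.06%), against 10.6% of all probe sets, 1 lower and 1 higher in threat (5.73% and 4.87% of all probe sets). A difference above 0 was found in 21 of 33 (63.6%), against 54.0% of all probe sets. Both threat pools lay on the same side of both control pools ("separate pools") in 7 of 33 member probe sets (21.2%), 3 lower and 4 higher in threat, against 43.2% on the whole array (19.4% lower and 23.9% higher). A change of 1.5-fold or more together with separate pools was seen in 0 of 33, against 0.83% of all probe sets. The largest differences among the members were -0.34 and 0.36, and the median was 0.045, beside 0.015 for all probe sets and 0.06 for the 22518 probe sets of the array with a mean above the overall median. With 2 pools a group, an exact permutation test cannot give a 2-sided p below 0.333, so none was run.

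The precision behind these values was moderate. The standard error of a member's log2 difference lay between 0.09 and 0.26, and the 95% interval of 27 of 33 probe sets stayed within a 1.5-fold change in both directions. The 6 others were 1 probe set each of Cntn1, Cntnap1, Ank3 and Ank2 and both of Hapln2, so that a 1.5-fold change of Cntnap1 or Hapln2 lies inside the interval. In 4 probe sets, 3 of Ank2 and 1 of Ank3, no pool exceeded 4.25, the top value among 27 control probe sets to Bacillus genes, which serve as a guide to background. These 4 are counted above and carry little information on the 2 ankyrins.

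**Figure D1:**
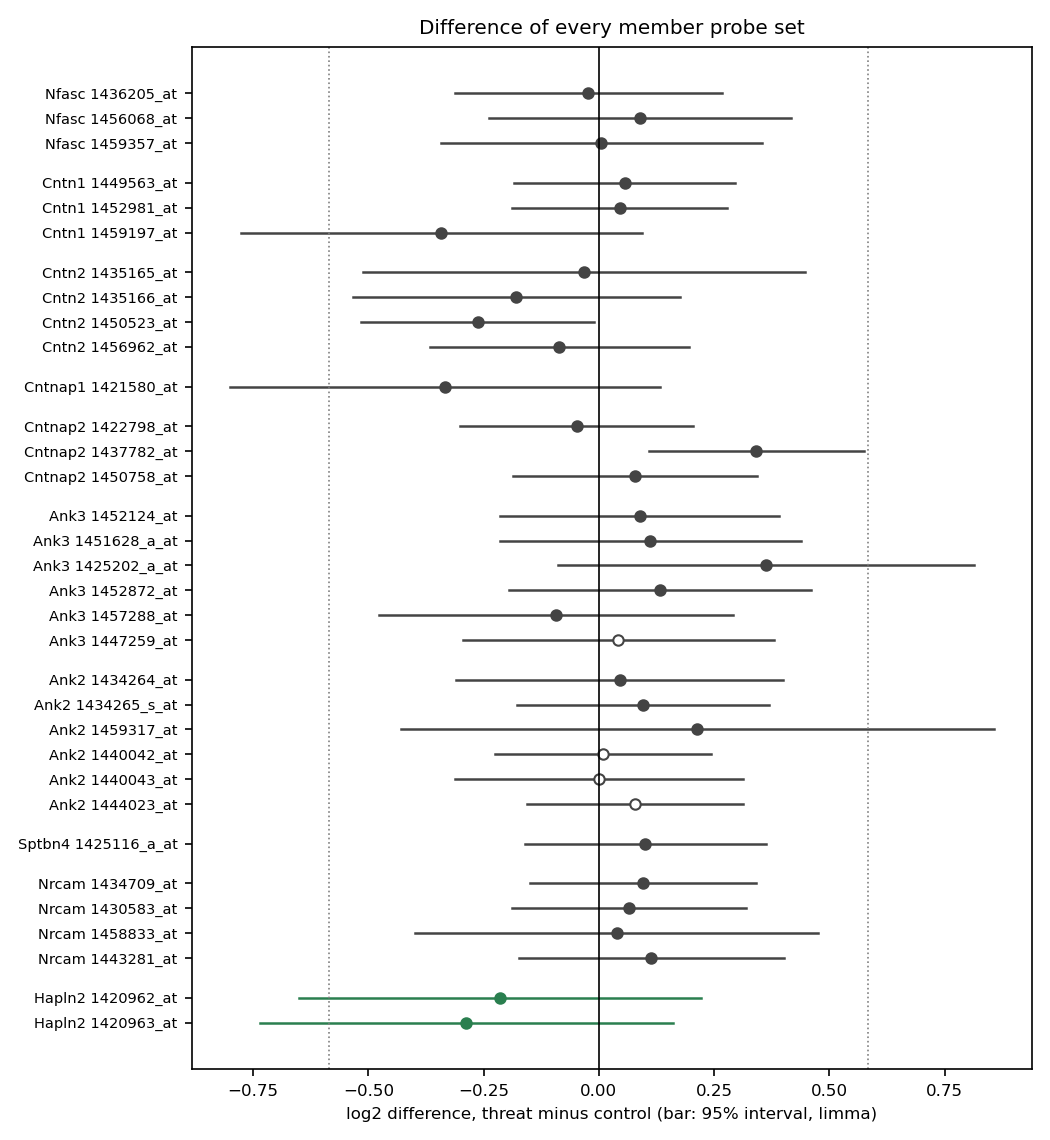
Log2 difference (threat minus control, x axis) of each of the 33 member probe sets (y axis, ordered within a gene by mean level), with points for the estimate, bars for the 95% interval of limma and dotted lines at a 1.5-fold change. Open points mark the 4 probe sets at or below the Bacillus controls and green marks Hapln2; 31 of the 33 bars cross 0, the exceptions being 1 probe set of Cntnap2 and 1 of Cntn2.

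Hapln2 lay lower in the threat pools on average, but its pools overlapped. By its probe set with the higher mean (1420962_at) it measured 6.59 and 6.14 in control pools 1 and 2 and 6.27 and 6.03 in threat pools 1 and 2. Control pool 1 stood above the other 3, and threat pool 1 lay above control pool 2. The log2 difference was -0.22 ± 0.18 (SE, n = 2 pools each), a control level 1.16-fold that of threat, with a 95% interval of -0.65 to 0.22 and, in limma's test, an adjusted p of 0.659. Without control pool 1 the difference was 0.01, and without control pool 2 it was -0.44, so its direction rested on control pool 1. The second probe set (1420963_at), built on the same source transcript, read 5.25 and 4.73 in control and 4.74 and 4.67 in threat pools. Its difference was -0.29 ± 0.18 (SE, adjusted p = 0.575 in limma's test) and -0.03 without control pool 1. In both groups and by both probe sets, pool 1 read higher than pool 2.

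**Figure D2:**
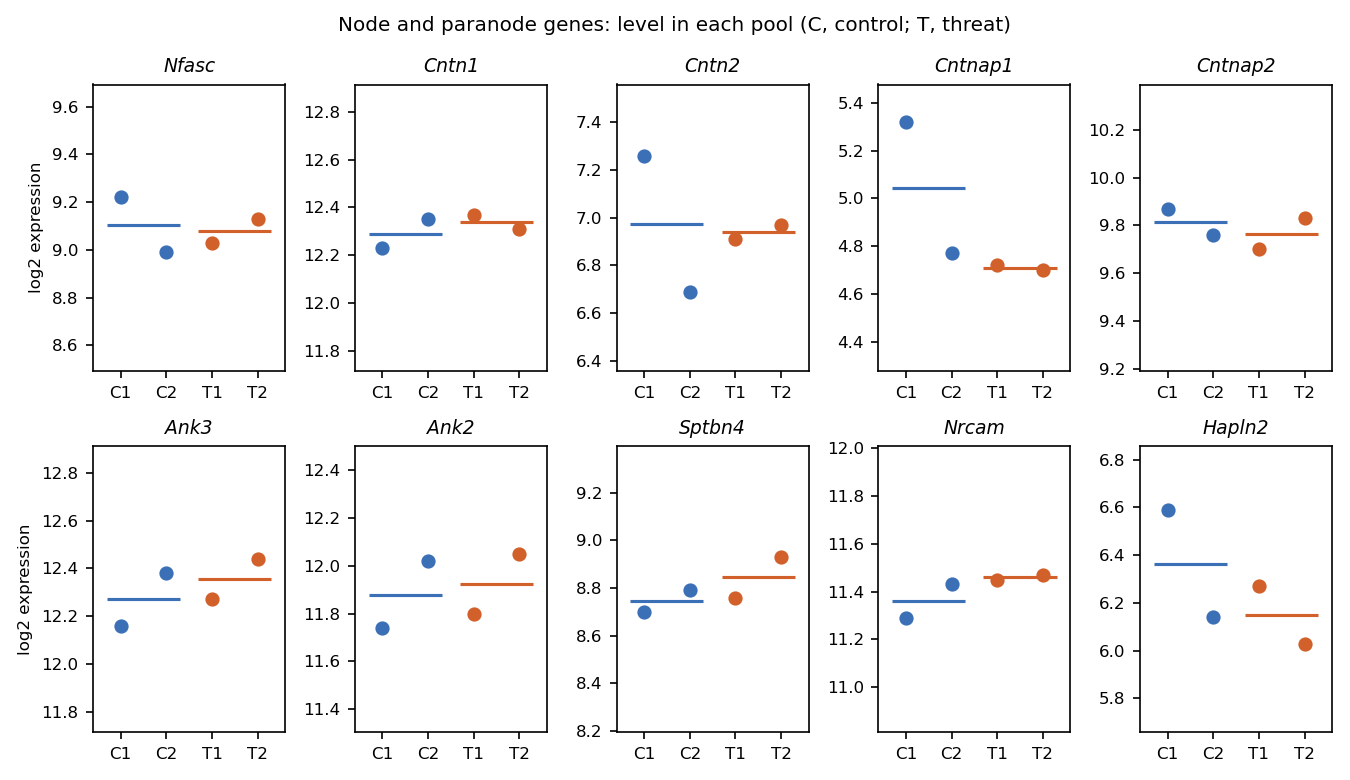
Log2 expression (y axis, 1.2 units high in every panel) of each of the 10 genes in the 2 control pools (C1, C2) and 2 threat pools (T1, T2), by its highest-reading probe set, with lines at the group means. The groups overlap in 8 of 10 panels, and control pool 1 stands highest for Nfasc, Cntn2, Cntnap1, Cntnap2 and Hapln2.

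Among the paranodal adhesion genes of the axon, Cntnap1 had the largest difference of the 10 genes by their main probe sets. Cntnap1, which encodes Caspr, is read by a single probe set with values of 5.32 and 4.77 in control and 4.72 and 4.70 in threat pools. These values lie near the Bacillus controls (up to 4.25), with little room to read lower. Both threat pools lay below both controls, though control pool 2 exceeded threat pool 1 by a margin far smaller than the gap between the control pools. Its log2 difference was -0.33 ± 0.19 (SE), with an interval of -0.80 to 0.13 and, in limma's test, an adjusted p of 0.542. Without control pool 1 it was -0.06, and without control pool 2 it was -0.61. Cntn1, the contactin that pairs with Caspr, measured 12.23 and 12.35 in control and 12.37 and 12.31 in threat by its main probe set, a difference of 0.06 ± 0.10 with an interval of -0.18 to 0.30. A second Cntn1 probe set gave 0.05 ± 0.09. The third (1459197_at) gave 6.90 and 6.69 in control against 6.23 and 6.68 in threat, a difference of -0.34 ± 0.17 (unadjusted p = 0.101 in limma's test). Its pools were separate only by the small margin between control pool 2 and threat pool 2, and the difference was -0.12 without threat pool 1. The probe sets of Cntn1 thus disagreed in sign.

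Neurofascin, which serves both the axon and the glial loop, measured 9.22 and 8.99 in control and 9.03 and 9.13 in threat pools. The threat pools fell between the controls, and the difference was -0.02 ± 0.12 (SE) with an interval of -0.31 to 0.27. The other Nfasc probe sets gave 0.09 ± 0.13 and 0.01 ± 0.14, each with overlapping pools. The files do not pair the probe sets with the axonal and glial isoforms, so no isoform is named.

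The juxtaparanodal genes held both member probe sets that had an unadjusted p under 0.05. Cntnap2, encoding Caspr2, is read by 3 probe sets. The main one measured 9.87 and 9.76 in control and 9.70 and 9.83 in threat, a difference of -0.05 ± 0.10 with an interval of -0.30 to 0.21. Probe set 1437782_at measured 9.12 and 9.20 in control and 9.47 and 9.54 in threat. Here both threat pools stood clearly above both controls, and the group difference was larger than the gap within either group. Counting both directions, such a difference was found in 2 of the 33 member probe sets and 31.2% of all. The other member was a Cntn2 probe set, lower in threat. For the Cntnap2 probe set 1437782_at the difference was 0.34 ± 0.09 (SE), or 1.27-fold higher in threat. In limma's test the unadjusted p was 0.0121 and the adjusted p 0.433. The difference stayed between 0.30 and 0.38 when each pool was left out in turn. The third gave 0.08 ± 0.11, so that 1 of 3 probe sets of the gene carried the difference.

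Cntn2, encoding TAG-1, is read by 4 probe sets, all with a difference below 0. The main one measured 7.26 and 6.69 in control and 6.91 and 6.97 in threat pools, which fell between the controls, for a difference of -0.03 ± 0.19. Its neighbour from the same source sequence gave -0.18 ± 0.14. Probe set 1450523_at measured 5.93 and 5.81 in control and 5.55 and 5.67 in threat, with both threat pools below both controls. Its difference was -0.26 ± 0.10 (SE), with an unadjusted p of 0.0442 and, in limma's test, an adjusted p of 0.466, and it lay between -0.32 and -0.20 when each pool was left out. The unadjusted p was 0.067 with median-centred arrays. The fourth probe set, close to the Bacillus controls, gave -0.09 ± 0.11.

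Nrcam and Sptbn4, an adhesion and a scaffold gene of the node, both had differences slightly above 0. Nrcam measured 11.29 and 11.43 in control and 11.45 and 11.47 in threat, with separate pools and a difference of 0.10 ± 0.10 (SE, interval -0.15 to 0.34, adjusted p = 0.73 in limma's test). Its 3 other probe sets gave 0.04 to 0.11, each with overlapping pools. Sptbn4, the spectrin of nodes and axon initial segments, measured 8.70 and 8.79 in control and 8.76 and 8.93 in threat by its only probe set, a difference of 0.10 ± 0.11 with an interval of -0.16 to 0.36. The threat pools reached higher, but threat pool 1 lay below control pool 2.

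Ank3, the ankyrin that gathers sodium channels at nodes and initial segments, measured 12.16 and 12.38 in control and 12.27 and 12.44 in threat by its main probe set. Pool 2 exceeded pool 1 in both groups, and the difference between groups was 0.09 ± 0.12 (interval -0.21 to 0.39). Of the 5 other probe sets, 1451628_a_at gave 0.11 and 1452872_at 0.13, both with overlapping pools, and the other two lower-reading ones gave -0.09 and 0.04. Probe set 1425202_a_at read 9.65 and 9.71 in control and 9.78 and 10.30 in threat. It had the largest difference of all 33, 0.36 ± 0.18 (unadjusted p = 0.0959 in limma's test). Threat pool 2 alone stood far above the rest, and without it the difference was 0.10.

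Ank2, encoding ankyrin B, which is linked to the paranodal and distal axonal skeleton, measured 11.74 and 12.02 in control and 11.80 and 12.05 in threat. The order again followed the pool number, and the difference was 0.05 ± 0.14 (interval -0.31 to 0.40). Without control pool 1 the main probe sets of Ank3 and Ank2 gave -0.02 and -0.10. A second probe set gave 0.10 ± 0.11. The probe set 1459317_at gave 0.21 ± 0.26, with 6.89 in threat pool 2 against 6.09 to 6.28 in the 3 others, and -0.19 without that pool. Over all members, pool 2 exceeded pool 1 in both groups in 13 of 33 probe sets (39.4%), against 25.2% of all probe sets, and the 4 genes of this kind by their main probe set were Ank3, Ank2, Sptbn4 and Nrcam.

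The 9 axonal genes were then set beside Hapln2. Over their main probe sets the median log2 difference was 0.045, with 4 genes below 0 and 5 above, 1 with separate pools in each direction, and 7 of the 9 under 0.1 in size. The same median was 0.12 without control pool 2 and -0.06 without threat pool 2. Hapln2 lay 0.26 below that median. Taking each value relative to the gene's own mean over the 4 pools, Hapln2 was at 0.33 and -0.11 in control and 0.01 and -0.23 in threat pools. The axonal median was at -0.09 and -0.01 in control and -0.04 and 0.04 in threat. Hapln2 exceeded the axonal median by 0.42 in control pool 1 and by 0.05 in threat pool 1, and fell under it by 0.11 in control pool 2 and by 0.27 in threat pool 2, so these values overlapped between the groups. Without control pool 1 Hapln2 and the axonal median differed between groups by the same amount (0.01 each). The gap between the 2 was not shown to differ between threat and control. Cntnap1, an axonal gene that read near the Bacillus controls, was at -0.33 ± 0.19 (SE). The probe sets of Hapln2 were at -0.22 ± 0.18 and -0.29 ± 0.18, so no order of these genes is shown.

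By their median, other oligodendrocyte genes had a larger difference than Hapln2 in the same pools, a contrast that was not tested itself. On a list of glial genes needed for or found at the paranodal loops, 8 of 9 were measured under a single symbol. All 8 lay below 0 with separate pools, against 19.4% of all probe sets. Of the 8, 6 were at least 1.5-fold lower (0.719% of all probe sets were so), and the median was -0.89. None passed an adjusted p of 0.05, while 6 were lower at an unadjusted p under 0.05, against the 5.73% above. Ugt8a, the enzyme of galactolipid synthesis on which paranodal junctions depend, measured 9.88 and 9.22 in control and 8.36 and 8.48 in threat, a difference of -1.13 ± 0.22 (adjusted p = 0.413 in limma's test). Mag, the adhesion protein of the inner myelin layer, was at -0.97, Opalin at -0.92, Ermn, a cytoskeletal protein of myelin loops, at -0.90, the fatty acid hydroxylase Fa2h at -0.87 and Cnp at -0.73. Gal3st1, which makes sulfatide, and the transcription factor Nkx6-2 lay nearer to Hapln2, at -0.22 and -0.28. The list's median was -0.58 without control pool 1 and -1.20 without control pool 2. Both values of Hapln2 (-0.22 and -0.29) were close to those of Gal3st1 and Nkx6-2. However, Nkx6-2 (4.49 to 4.93) and the second Hapln2 probe set (4.67 to 5.25) read near the Bacillus controls, with little room to read lower.

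Most markers of mature oligodendrocytes also had larger differences than Hapln2. Of 15 markers 13 were measured under a single symbol, and these lay below 0 with separate pools, 8 of them at least 1.5-fold lower, with a median of -0.69 and values from -1.31 (Mobp, a structural myelin protein) to -0.19 (Car2, a carbonic anhydrase). The others past the rule of size were Cldn11 at -1.30, Mal at -1.16, Mog at -0.99, Ppp1r14a at -0.83, Tspan2 at -0.70, Mbp at -0.69 and Aspa at -0.69. The summed linear signal of the 13 was 23346 and 18575 in control and 11462 and 13817 in threat pools, with none at the Bacillus controls. Hapln2 was highest in control pool 1, as these markers were, but it had a higher value in threat pool 1 than in threat pool 2, which the marker median did not. In pooled tissue, fewer oligodendrocytes in the tissue taken, for whatever reason, and less RNA per oligodendrocyte cannot be told apart. The part of either in the values of Hapln2 was not tested.

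**Figure D3:**
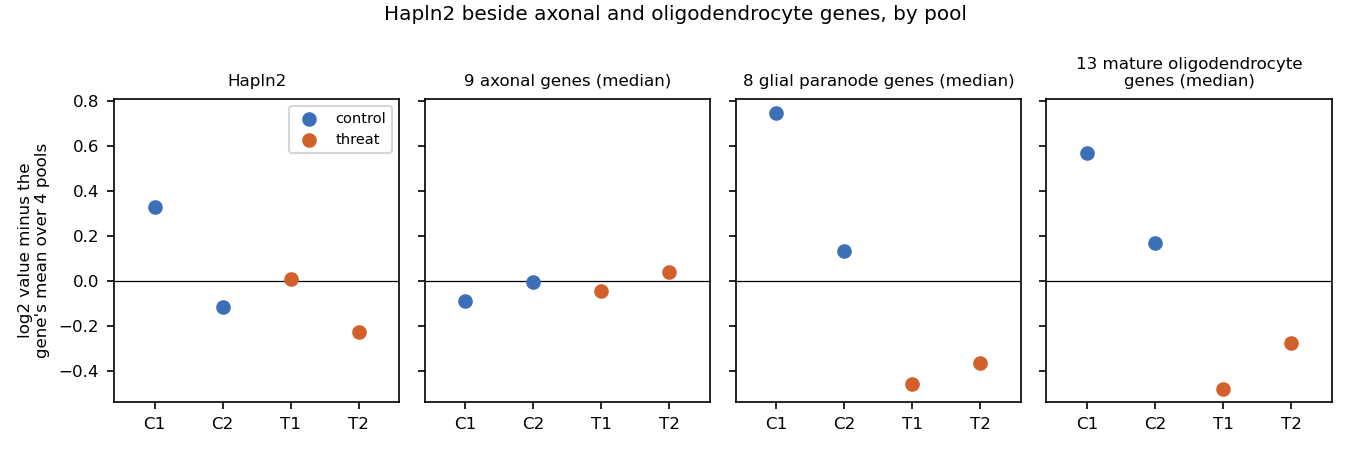
Log2 value minus each gene's mean over the 4 pools (y axis) in control (C1, C2) and threat (T1, T2) pools, for Hapln2 and for the medians of the 9 axonal genes, 8 glial paranode genes and 13 mature oligodendrocyte markers. Control and threat points overlap for Hapln2 and the axonal median and are apart for both oligodendrocyte lists.

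Lists of general neuronal genes and of axonal genes had medians between 0.00 and 0.15. The 12 pan-neuronal and neurofilament markers had a median of 0.00, with 6 on each side of 0, and the largest differences were those of Stmn2 (0.18), Map2 (-0.15) and Snap25 (-0.15). Their summed linear signal ran from 56686 to 57640 over the 4 pools, and their lowest single value in any pool was 8.42, above the Bacillus controls. Of 8 sodium channel subunits, 7 were measured, with a median of 0.15 (0.04 without control pool 1), 5 above 0 and 3 of these with separate pools. Scn1a was at 0.19, Scn2a at 0.15 and Scn8a, the main channel of mature nodes, at 0.15. The 10 measured of 11 potassium channel subunits had a median of 0.04, with Kcnq3, a subunit of the nodal M-current channel, at 0.22 (0.01 without control pool 1), Kcnq5 at 0.20 and Kcna6 at 0.16. Kcna1 and Kcna2, the juxtaparanodal channels gathered by Caspr2 and TAG-1, were at 0.07 and 0.04. Of the 10 potassium channel genes, 2 lay below 0, and Kcnk2 was at -0.12 with both threat pools below both controls. The 16 measured of 18 other scaffold and juxtaparanode genes had a median of 0.04, with Adam22 at 0.20, Trim46 at 0.15 and the spectrin Sptbn1 at 0.11. Without control pool 1 that median was -0.003, Adam22 was at 0.06 and Sptbn1 at 0.004. With all pools, 6 of the 16 lay below 0, the lowest being Cadm4 at -0.09. No gene of these 4 lists had an unadjusted p under 0.05 in limma's test.

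The perinodal matrix, which Hapln2 helps to assemble, was mixed. Its 8 genes had a median of -0.01, with 4 on each side of 0 and 2 with separate pools in each direction. Bcan, the proteoglycan brevican, measured 11.22 and 11.12 in control and 10.75 and 10.88 in threat, with both threat pools below both controls. By this probe set, an _x_at one that may cross-hybridise, the difference was -0.35 ± 0.10 (unadjusted p = 0.0151, adjusted p = 0.433 in limma's test). The values given for Cnp, Gja1 and Cntn3 also come from _x_at probe sets and share this limit. Vcan, whose product versican binds Hapln2 at nodes, was at 0.22 ± 0.10 and Ptprz1 at -0.19 ± 0.12. The link proteins Hapln1 and Hapln4 were at 0.05 and 0.02. Astrocytes, whose processes touch nodes and which make matrix proteoglycans, had a marker median of -0.12 over 8 genes. It was led by Gfap at -0.59, with Gjb6 and Gja1 both at -0.36. Aqp4 was at -0.08, Slc1a3 at -0.02 and Aldh1l1 at 0.02, and 4 of the 8 astrocyte markers had overlapping pools. Without threat pool 1 the median was -0.02 and Gjb6 was at 0.03. The summed linear signal of the list was 27010 and 27367 in control and 22671 and 25755 in threat. The part of this list in the value of Bcan was not tested.

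Among relatives of the members in the same protein families, 14 of 18 were measured, with a median of 0.06, 9 above 0 and 5 below. Cntn3, a contactin not known from nodes, measured 8.10 and 8.27 in control and 7.39 and 7.88 in threat, a difference of -0.54 ± 0.18 (unadjusted p = 0.0247, adjusted p = 0.446 in limma's test), and -0.30 without threat pool 1. Cntnap4 was at 0.40 ± 0.35, with 7.78 in control pool 2 and 8.49 to 8.92 in the 3 others, and at -0.12 without control pool 2. L1cam, an axonal adhesion gene related to Nrcam and Nfasc, was at 0.30 ± 0.13 with separate pools. Its difference was 0.14 without control pool 1 and 0.46 without control pool 2. Hapln3 was at -0.28.

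**Figure D4:**
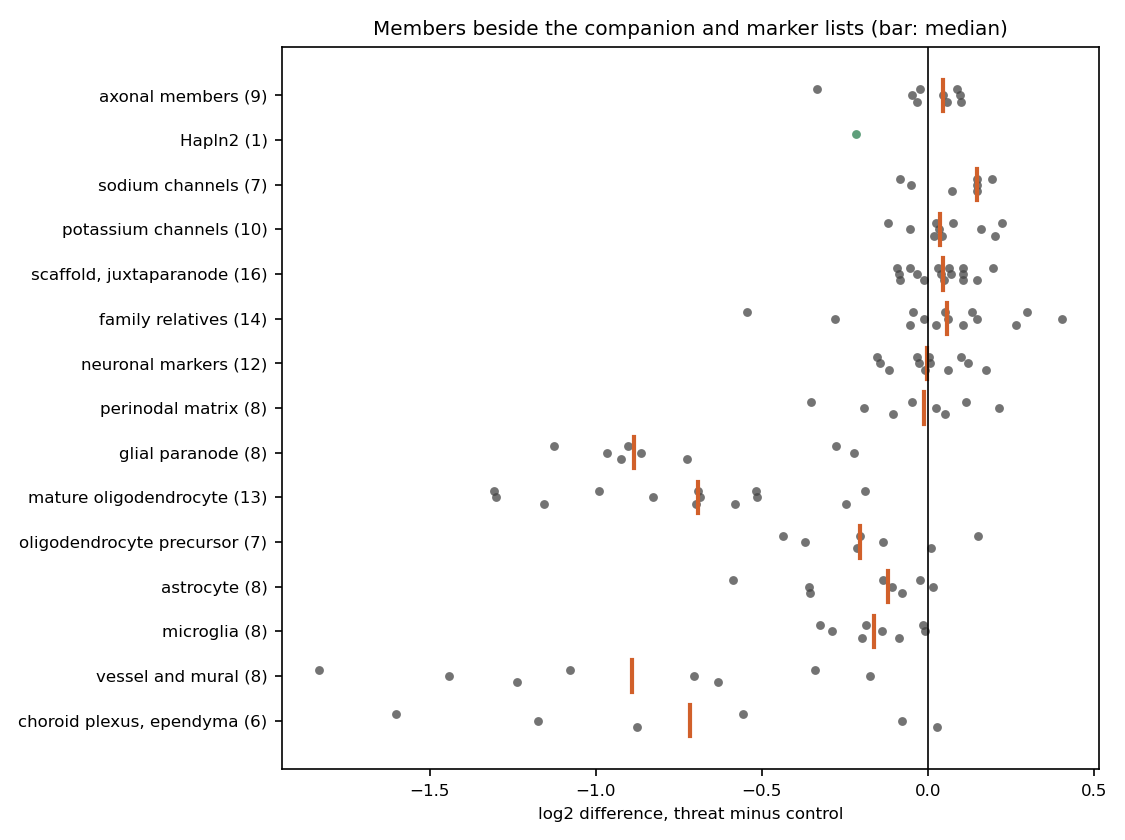
Log2 difference (threat minus control, x axis) of the 9 axonal members, Hapln2 and the genes of 13 companion and marker lists (y axis, number of measured genes in brackets), 1 point per gene by its highest-reading probe set and a bar at the list's median. Axonal members and neuronal lists sit around 0, and the glial paranode and mature oligodendrocyte lists sit lower, with medians of -0.89 and -0.69. The vessel and mural list and the choroid plexus and ependyma list also sit lower, with medians of -0.89 and -0.72.

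Marker lists of other cell types in the tissue had medians below 0. These were -0.20 over 7 oligodendrocyte precursor markers (Enpp6 at -0.44, Olig1 at -0.37 and Bmp4 at -0.21, with Pdgfra at 0.01 and Cspg4 at 0.15), -0.16 over 8 microglia markers (C1qa at -0.33, C1qb at -0.29, Tyrobp at -0.20), -0.89 over 8 vessel and mural markers and -0.72 over 6 choroid plexus and ependyma markers. Bmp4 turned to 0.33 without threat pool 1 and to 0.23 without control pool 2. Of the microglia markers, Itgam was at -0.02 and P2ry12 at -0.01, and 4 of the 8 had overlapping pools. The vessel genes past the rule of size were Acta2 at -1.83, Tagln at -1.44, Myh11 at -1.24, Vwf at -1.08, Pdgfrb at -0.70 and Pecam1 at -0.63. Ttr, made by choroid plexus, read 9.05 in control pool 1 against 6.15 to 6.48 in the 3 others, and Ccdc153 was at -0.88. Folr1 at -0.08 and Kl at 0.03, on the same list, had overlapping pools. Tmem212 read 5.54 and 4.67 in control and 3.95 and 3.91 in threat, where both pools were under the top Bacillus control, so no fold is given. The choroid median was -0.31 without control pool 1, and the vessel median -0.58 without control pool 2 and -0.51 without threat pool 1. Control pool 1, on which the direction of Hapln2 and most of the difference of Cntnap1 rested, also had the highest choroid and oligodendrocyte medians. Folr1 and Kl were not highest in that pool. The part of these lists in the results of Hapln2 and Cntnap1 was not tested. The arrays correlated with each other at 0.9942 to 0.9961 over all probe sets. The log2 ratio of 3′ over 5′ signal, which reflects RNA integrity, differed between threat and control by 0.04 for the Gapdh control, 0.05 for Actb, 0.01 for the transferrin receptor, -0.11 for pyruvate carboxylase and -0.13 for 18S rRNA, where the threat pools were at -1.51 and -2.52.

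Across the 4 arrays, the pattern of Hapln2 was most like those of Cplx1, a complexin of synaptic vesicle release, Th, the tyrosine hydroxylase of catecholamine synthesis, Cldnd1, Pcp4l1 and Susd3. Likeness was measured as the root mean square distance between values centred on each probe set's mean, over 20587 probe sets with 1 symbol and a mean above the overall median, and it lay between 0.0196 (Cplx1) and 0.0376 (Susd3). Cplx1 read 11.63, 11.22, 11.30 and 11.11 in control pools 1 and 2 and threat pools 1 and 2. The comparison is over 4 arrays and is a description.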

How the data were processed

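Values deposited by the authors were on the log2 scale, with 1 value for each probe set on each array, and the submitters' processing notes name RMA. Its settings are not stated there. As usually run, RMA brings arrays to a common distribution, which hides a change of most transcripts in 1 direction. Per the labels, total RNA of prefrontal cortex was extracted with a Qiagen kit. Array medians lay between 5.53 and 5.58.

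Of 45101 probe sets, 64 controls were left out. Symbols came from the platform annotation, in which 34945 probe sets had 1 symbol, 932 several and 9160 none. Threat was compared with control in limma 3.58.1 (R 4.3.3; lmFit, eBayes, 2-sided, Benjamini-Hochberg over 45037 probe sets). The fit left 2 residual degrees of freedom, and the number of arrays limits the precision. A gene's main probe set is the one with the highest mean over the 4 arrays.

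The members and the 13 companion and marker lists were chosen with earlier results of these data known. Of 143 genes on all lists, 131 were measured under a single symbol. The named genes were all members and, per list, those past the rule of size, or up to 3 with the largest differences where fewer passed. Further genes with values in the text (Kcna1, Kcna2, Kcnk2, Cadm4, Hapln1, Hapln3, Hapln4, Gal3st1, Nkx6-2, Car2, Pdgfra, Cspg4, Aqp4, Slc1a3, Aldh1l1, Itgam, P2ry12, Folr1 and Kl) were chosen after their values were seen. Alternatives were cyclic loess, median centring, an intensity trend, bright probe sets (mean above the overall median), no _x_at or _s_at probe sets, no probe sets at background, averaging a gene's probe sets, other folds, the pool number as a block and leaving out each pool.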

Additional observations from a re-analysis of the deposited data

How the results depend on the processing

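No member passed an adjusted p of 0.05 under any alternative in limma's test. The log2 difference of Hapln2 (-0.22) lay between -0.437 and 0.007 when each pool was left out, and turned to 0.007 without control pool 1. With the pool number as a replicate block it was -0.22 (adjusted p = 0.402), and it lay between -0.18 and -0.25 under the alternatives that keep all pools. The median of the axonal genes (0.045) ran from -0.061 to 0.115 when each pool was left out, and Hapln2 minus that median from -0.55 to 0.00. The count of member probe sets at an unadjusted p under 0.05 was 1 in place of 2 with median centring, with an intensity trend and with the replicate block, and 0 to 5 when each pool was left out. Past the rule of size there were 0 to 1 lower and 0 to 2 higher when each pool was left out, and 2 lower and 2 higher at the smaller of the other folds tried. Of the small differences of single genes, Nfasc turned to 0.013 and Cntn2 to 0.004 with median centring, and Nfasc to 0.024, Cntn1 to -0.08 and Cntnap2 to 0.124 when a gene's probe sets were averaged. Leaving out each pool gave -0.138 to 0.092 for Nfasc, -0.003 to 0.115 for Cntn1, -0.315 to 0.251 for Cntn2, -0.112 to 0.016 for Cntnap2, -0.019 to 0.197 for Ank3 and -0.095 to 0.186 for Ank2. The cause of these changes was not tested. With bright probe sets alone Cntnap1 was not among those tested. Deviations of same-numbered pools from their group means correlated at 0.44 over bright probe sets, but 2 pairs with no label that ties them do not establish a pairing, and the block gave no call. Genes near the Bacillus controls have little room to read lower.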
